A study of Homo sapiens with 6 samples.

Results

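Gene expression was compared between CHLA 06 and CHLA 04, cell lines from atypical teratoid rhabdoid tumor (AT/RT), an embryonal tumor of the central nervous system in young children. Transcript values were summed to 36532 gene identifiers, and a gene was taken as a member when the lowest value of 1 cell line lay above the highest value of the other. This held for 14218 genes, of which 11234 had a mean TPM of at least 1 (transcripts scaled by length and library size, the unit of the files) over the 4 libraries. The filter at 1 TPM was passed by 14585 genes in all. Among these, 30.6% (4462 genes) were separated with CHLA 06 higher and 46.4% (6772) with CHLA 04 higher. A gene was then called when its libraries were separated and the means of log2(TPM + 2) differed by at least 1. This left 2032 genes called higher in CHLA 06, which is 13.9% of the genes that passed the filter, and 2770 called higher in CHLA 04, which is 19.0%. Of the separated genes under the filter, 1349 were higher in CHLA 06 and 1635 in CHLA 04, and they are not described further.

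Both lines are established cultures obtained from ATCC and described by the study as deficient in SMARCB1. All cells were grown in DMEM:F12 medium with 20 ng/mL EGF, 20 ng/mL basic FGF and 2% B-27, without any treatment. The study placed CHLA 04, together with CHLA 02 and CHLA 05, in group 1, the neurogenic AT/RT that later schemes call ATRT-SHH. CHLA 06 was placed in group 2, which such schemes divide into ATRT-MYC and ATRT-TYR. Total RNA was sequenced from 1 biological sample per line, with 2 technical replicates each for CHLA 06 and CHLA 04 and 1 library each for CHLA 02 and CHLA 05. The step at which the technical replicates were split is not stated. They do not measure the spread between biological samples of a line or between tumors. For this reason no test between the lines was made and no p-value is given, and a difference between the 2 lines cannot be told apart from a difference between their AT/RT groups.

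SMARCB1 is a core subunit of the SWI/SNF complex, which moves nucleosomes with the energy of the ATPases SMARCA4 or SMARCA2 and opposes Polycomb repression. Its loss is the defining lesion of AT/RT. Tumors of the SHH group express hedgehog, Notch and neural progenitor genes, those of the TYR group express melanosomal and BMP genes, and those of the MYC group express MYC and HOXC genes.

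The libraries held 18765484 and 20520229 recovered reads in CHLA 06 and 10265899 and 17360741 in CHLA 04. A single read on 1000 bases of transcript corresponded to between 0.117 and 0.236 TPM. A gene with no read in such a library could still have had a level of up to 0.351 to 0.709 TPM, the worth of 3 reads, by counting error alone. Across the 14585 genes, 153 differed by at least 2-fold on log2(TPM + 2) between the technical replicates of CHLA 06 (1.05%) and 639 between those of CHLA 04 (4.38%). Between a library of 1 line and a library of the other, 4366 to 5571 genes did so (29.9% to 38.2%). Pearson's r across genes was 0.988 and 0.970 within the lines and 0.665 to 0.719 between them, a description across genes that are not independent replicates. The first CHLA 04 library was the shallowest and stood apart from its replicate in a way that followed GC content, described further on. The CHLA 02 library, which was not used for any call, held the genes of both lines, also described further on. The median difference of all genes was −0.20 (log2, CHLA 06 minus CHLA 04), and gene groups are read beside this value.

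MYC, PAX6 and SMARCA2 were markers of the lines when the comparison was chosen, and their values are given as a description. MYC (ENSG00000136997), a transcription factor that drives growth, had 94.1 and 72.1 TPM in CHLA 06 and 0.612 and 0.937 TPM in CHLA 04. The values rest on 1491 and 1324 reads in CHLA 06 against 6 and 12 reads in CHLA 04, and the difference was 4.93 ± 0.21 on the log2(TPM + 2) scale (SE between technical replicates). PAX6 (ENSG00000007372), a transcription factor of neuroectoderm, had 0.604 and 0.937 TPM in CHLA 06 and 29.7 and 26.2 TPM in CHLA 04. SMARCA2 (ENSG00000080503), the ATPase that can replace SMARCA4, had 1.36 and 1.23 TPM in CHLA 06 and 44.8 and 51.4 TPM in CHLA 04. The libraries of both genes were separated, as membership asks, with CHLA 04 higher by 3.44 and 3.92 on the log2 scale. In the remaining lines of group 1 the CHLA 05 library had 1.44 TPM of MYC and the CHLA 02 library 79.7 TPM, the latter being the single library that held the genes of both lines, the source of which was not tested. In bulk libraries such as these, fewer cells that express a gene and less of its RNA per cell cannot be told apart.

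The largest differences in each direction were those of genes with high levels in 1 line and no more than 15.7 TPM in a library of the other. The upstream sequences of 5 genes, some of these and MYCN, are shown so that their composition can be read beside the values. They are the 250 bases before the annotated start (RefSeq, GRCh38.p14), 5′ to 3′ on the strand of the gene, with each CG dinucleotide in capitals. S100A11 (chr1:152037005-152037254, minus strand, 15 CG) and COL6A3 (chr2:237414165-237414414, minus strand, 3 CG) were higher in CHLA 06. FABP7 (chr6:122779466-122779715, plus strand, 5 CG), TMSB4X (chrX:12974860-12975109, plus strand, 21 CG) and MYCN (chr2:15940300-15940549, plus strand, 11 CG) were higher in CHLA 04.
S100A11: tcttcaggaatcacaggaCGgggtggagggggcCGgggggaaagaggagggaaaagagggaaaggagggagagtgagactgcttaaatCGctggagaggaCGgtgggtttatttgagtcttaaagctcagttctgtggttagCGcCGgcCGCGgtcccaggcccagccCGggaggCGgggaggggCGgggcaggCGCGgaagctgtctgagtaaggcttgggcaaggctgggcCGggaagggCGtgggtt
COL6A3: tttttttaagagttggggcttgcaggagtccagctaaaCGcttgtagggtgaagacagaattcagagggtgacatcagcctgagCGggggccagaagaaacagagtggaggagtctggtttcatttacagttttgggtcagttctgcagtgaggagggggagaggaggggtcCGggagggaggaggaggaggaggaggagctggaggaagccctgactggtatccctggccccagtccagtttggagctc
FABP7: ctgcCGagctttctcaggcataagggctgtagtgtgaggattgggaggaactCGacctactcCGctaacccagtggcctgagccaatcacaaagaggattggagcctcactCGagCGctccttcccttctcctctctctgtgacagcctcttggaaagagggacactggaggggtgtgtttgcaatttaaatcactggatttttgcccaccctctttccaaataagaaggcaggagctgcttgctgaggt
TMSB4X: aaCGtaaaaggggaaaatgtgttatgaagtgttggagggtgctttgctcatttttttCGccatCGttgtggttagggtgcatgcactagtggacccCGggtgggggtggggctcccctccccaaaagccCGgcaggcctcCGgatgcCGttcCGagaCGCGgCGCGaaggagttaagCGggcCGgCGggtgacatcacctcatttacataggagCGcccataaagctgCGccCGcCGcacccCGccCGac
MYCN: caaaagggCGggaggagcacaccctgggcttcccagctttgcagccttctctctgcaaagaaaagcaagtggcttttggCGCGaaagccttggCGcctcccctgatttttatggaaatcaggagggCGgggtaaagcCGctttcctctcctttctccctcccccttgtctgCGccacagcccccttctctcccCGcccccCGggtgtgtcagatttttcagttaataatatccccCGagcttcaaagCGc
Over the 10551 protein-coding genes with such a sequence the median was 21 CG in 250 bases. None of the 5 sequences shown lay above it, but this holds only for these 5. Of further genes, PTPRZ1 and SMARCA2 had 29 CG and PAX6 had 22, all above the median. ANXA1 with 0 CG and DMD with 8 lay under it. A comparison of the called sets by promoter is void, because a RefSeq promoter was matched for only 78.7% of the protein-coding genes called higher in CHLA 06 and 78.6% of those called higher in CHLA 04.

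In CHLA 06 the gene that differed most was COL6A3, a chain of collagen VI, with 2363 and 2291 TPM against 0.337 and 0.280 TPM in CHLA 04. MGP, an inhibitor of calcification found in cartilage and vessel walls, had 2152 and 2501 TPM against 0.168 and 0.551 TPM. S100A11, a calcium-binding protein, had 2118 and 2530 TPM against 0.796 and 0.244 TPM. These 3 genes were thus among the abundant transcripts of CHLA 06 and rested on no more than 11 reads in a CHLA 04 library for COL6A3 and 2 for S100A11. ANXA1, a phospholipid-binding annexin, was the most abundant of the 12 genes named for their difference, with 6132 and 6309 TPM against 3.43 and 7.45 TPM. LGR5, a receptor for R-spondins and a marker of WNT-responsive stem cells, had 1392 and 1114 TPM against 0.0845 and 0.435 TPM. TES, a focal adhesion protein, had 1099 and 753 TPM in CHLA 06 and no read in either CHLA 04 library. MUC15, a membrane mucin, had 789 and 427 TPM and again no read in CHLA 04. The remaining genes of the 12 were TIMP1, SVEP1, NT5E, FBXL21 and COL3A1, with differences from 8.11 to 8.77 on the log2 scale. Their replicates differed more than those of COL6A3, with 593 and 1728 TPM for TIMP1, an inhibitor of metalloproteinases, and 1660 and 628 TPM for the matrix protein SVEP1 in CHLA 06. For both genes the gap to the CHLA 04 libraries, all under 2 TPM, was far wider than the gap between replicates.

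In CHLA 04 the gene that differed most was ACTG2, a smooth muscle actin, with 2373 and 3847 TPM against 0.835 and 0.598 TPM in CHLA 06. FABP7, the fatty acid-binding protein of radial glia, had 2236 and 4102 TPM against 0.566 and 1.43 TPM. TMSB4X, an actin-sequestering thymosin, had 2751 and 5894 TPM against 3.09 and 2.02 TPM. For each of these the second CHLA 04 library was higher than the first, and both lay far above the CHLA 06 libraries. The pair of PTN and PTPRZ1, a growth factor and its receptor phosphatase in neural progenitors, was present together in CHLA 04. PTN had 2007 and 1485 TPM against 0.321 and 0.145 TPM, and PTPRZ1 had 909 and 1419 TPM against 0.218 and 0.115 TPM. TUBB2B, a tubulin of developing brain, had 1713 and 1773 TPM against 2.60 and 3.03 TPM. The remaining genes of the 12 were SPP1, FAM107A, SCUBE1, SFRP1, LIMCH1 and MEST, with differences from −8.05 to −9.57 on the log2 scale. Their libraries do not overlap because a call requires it. The highest CHLA 06 value among them was 15.7 TPM, for the imprinted gene MEST, against 3448 and 4317 TPM in CHLA 04.

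**Figure D1:**
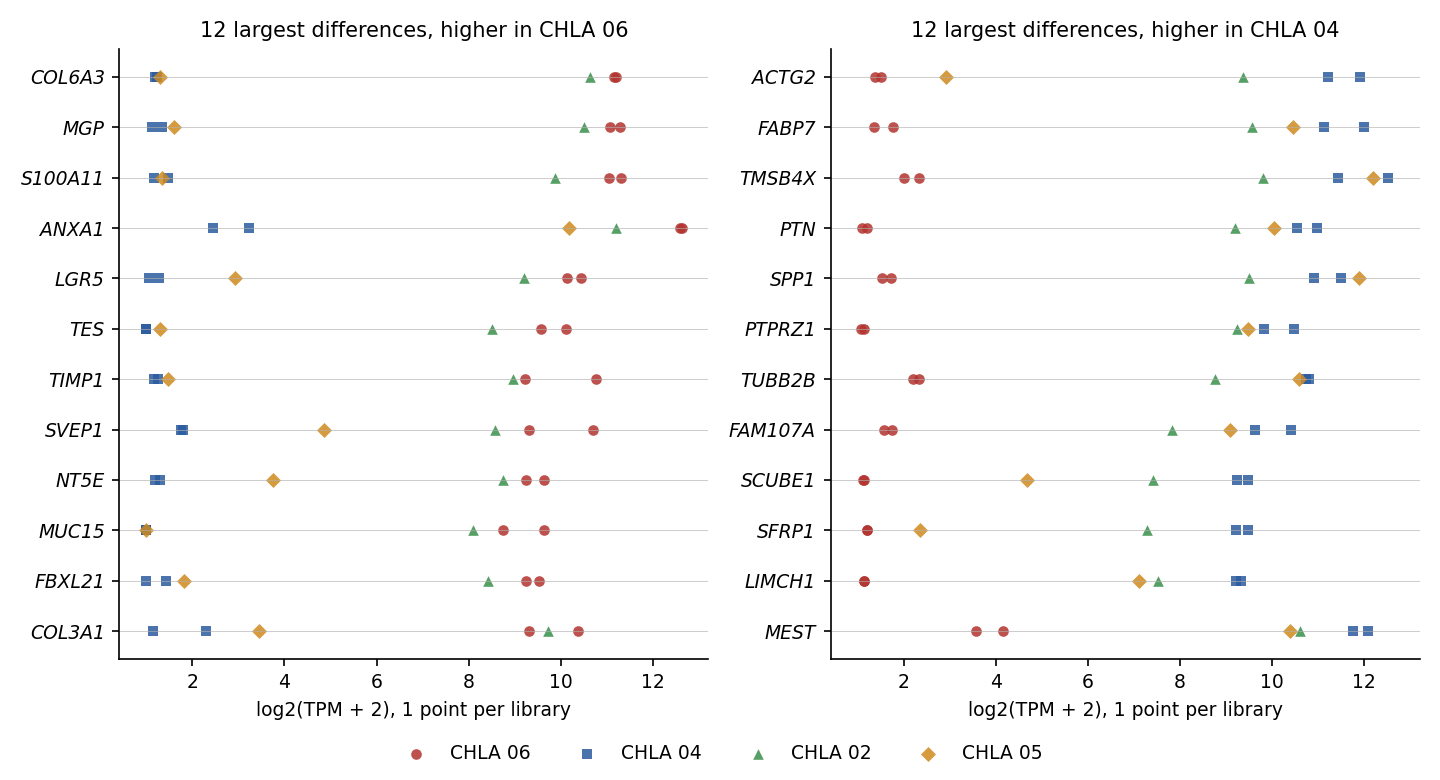
Expression of the 12 genes with the largest difference in each direction, as log2(TPM + 2) with 1 point per library, for CHLA 06 (circles), CHLA 04 (squares), CHLA 02 (triangle) and CHLA 05 (diamond). The replicates of a line lie close together against the distance between CHLA 06 and CHLA 04, and the CHLA 02 library lies toward the higher line in both panels.

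These extremes were the end of a wide range. Differences of at least 3 on the log2 scale were found for 428 genes higher in CHLA 06 and 501 higher in CHLA 04, and differences of at least 5 for 127 and 144 genes. Of the called genes, 708 higher in CHLA 06 and 876 higher in CHLA 04 passed the filter although the other line had a mean under 1 TPM. Such genes had to differ to be compared, so that counts and medians of gene lists are read as descriptions of the members that passed. Every list count is read beside the shares among all genes, 13.9% called higher in CHLA 06 and 19.0% in CHLA 04. A stricter group held under 0.5 TPM in both libraries of 1 line and at least 10 TPM in both libraries of the other. It comprised 224 genes present in CHLA 06, of which 87 had no read in CHLA 04, and 244 genes present in CHLA 04, of which 49 had no read in CHLA 06. At the edge of the size rule, FAM8A1 (1.0004) and RPS15A (1.0008) were inside and BCAP29 (0.9990) and TNFRSF11B (0.9983) outside on the CHLA 06 side. PROM1 (−1.0003) was inside and MITF (−0.9999) outside on the CHLA 04 side.

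**Figure D2:**
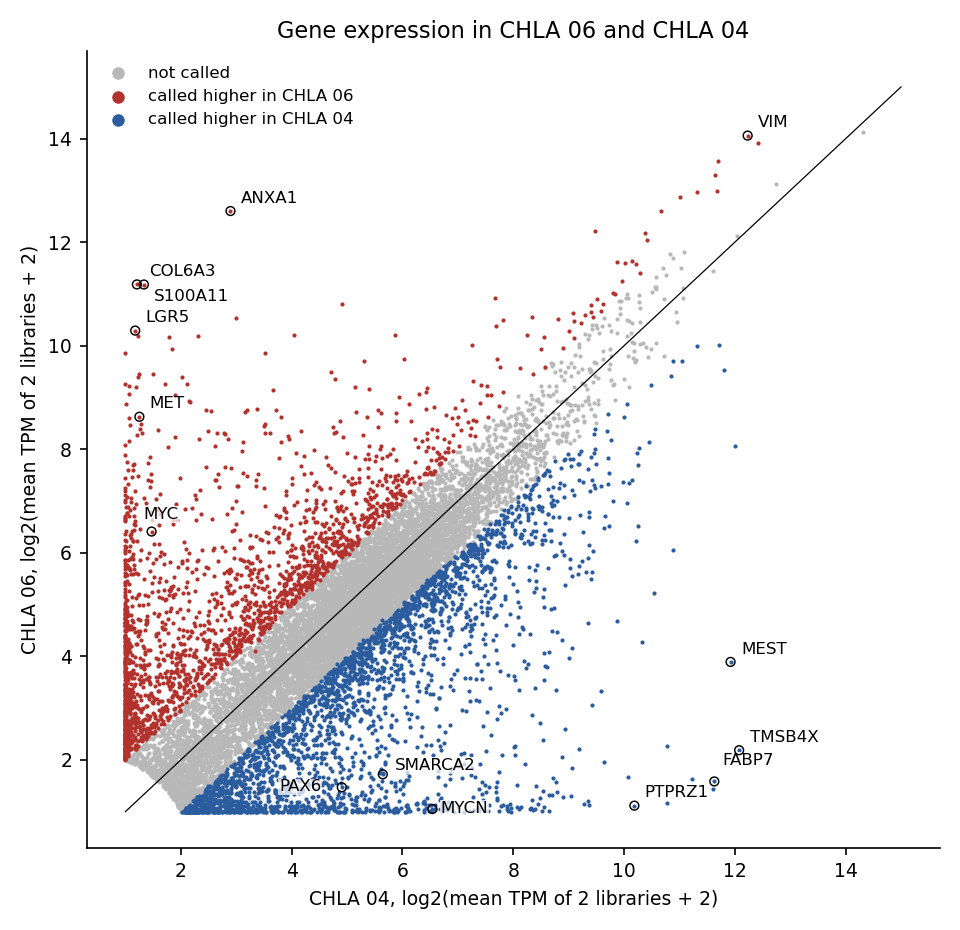
Each point is 1 of the 14585 genes, placed by log2(mean TPM + 2) of the 2 CHLA 04 libraries (horizontal) and of the 2 CHLA 06 libraries (vertical), with called genes in red (2032 higher in CHLA 06) and blue (2770 higher in CHLA 04) and the diagonal as the line of equal level. Called genes reach from the axes, where a line is near 0 TPM, to VIM at the upper right, and the named genes are circled.

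The balance of the 2 directions depended on the scaling. Of all calls, 42.3% were higher in CHLA 06 and 57.7% in CHLA 04. With the libraries scaled by their median ratio the split was 53.5% to 46.5%, with quantile normalization it was 51.3% to 48.7%, and with values centred by GC content it was 54.1% to 45.9%. No gene was called in the opposite direction under any of these. Protein-coding genes gave 1822 calls for CHLA 06 and 2411 for CHLA 04 among 13027, which is 14.0% and 18.5%. Among 1064 long non-coding RNAs the shares were 13.5% and 22.2%, and among 370 pseudogenes 13.2% and 25.4%.

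The MYC family was divided between the lines. MYCN, the paralog of MYC used by neural progenitors, had 0.0497 and 0.0900 TPM in CHLA 06 (1 and 2 reads) and 113 and 69.6 TPM in CHLA 04. MYCL, the third paralog, had 1.22 and 0.691 TPM in CHLA 06 and 63.4 and 43.5 TPM in CHLA 04. Thus each line had at least 1 family member above 40 TPM, MYC in CHLA 06 and MYCN and MYCL in CHLA 04. All 3 were called, which requires that the libraries do not overlap. Of the 13 measured genes of the MYC network, 3 were called higher in CHLA 06 and 3 in CHLA 04. This was 23.1% each, against 13.9% and 19.0% of all genes, and the call of MYC was known beforehand. The median was −0.00397, and its sign changed with the scaling. Without the first CHLA 04 library 5 were called higher in CHLA 06. The calls besides the family were MXD3, a repressor that competes for MAX, at 13.7 and 14.7 TPM against 108 and 79.0 TPM, and MXD1 and the glucose-responsive factor MLXIPL on the CHLA 06 side. MAX, the shared partner, was not called, with 47.3 and 41.3 TPM in CHLA 06 and 52.8 and 52.1 TPM in CHLA 04.

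Genes for ribosome assembly and for polyamine and nucleotide synthesis, which MYC proteins are known to activate, were mostly not called. Of 24 nucleolar genes, 1 was called, NPM1 (nucleophosmin) with 1841 and 1741 TPM in CHLA 06 against 606 and 969 TPM in CHLA 04, a call lost without the first CHLA 04 library. Of 23 polyamine and nucleotide genes, AMD1 was called higher in CHLA 06 (3 genes under median-ratio scaling) and SMS, the spermine synthase, higher in CHLA 04. Both lists had medians near that of all genes, −0.10 and −0.28, and both lists had fewer calls than the shares among all genes would give. The sign of the nucleolar median changed with the scaling, and that of the polyamine and nucleotide list turned in GC-centred values and stayed negative under each scaling. Cytosolic ribosomal protein genes had a median of 0.80, with 22 of 85 called higher in CHLA 06 and 1 higher in CHLA 04. The latter was a low identifier with the symbol RPL41 (ENSG00000279483, chromosome 7 from 137513832 to 137514238, GRCh38), which rested on 4 and 3 reads in CHLA 06 and 11 and 10 in CHLA 04. The abundant RPL41 identifier (ENSG00000229117) was not called, at 2132 and 1562 TPM against 1366 and 1094 TPM. Examples on the CHLA 06 side were RPS12, at 5224 and 4254 TPM against 677 and 752 TPM, and RPL12, at 3267 and 3032 TPM against 974 and 890 TPM. The CHLA 06 count ranged from 18 to 46 over the alternative processings and was 46 with median-ratio scaling and 35 without the first CHLA 04 library, and many ribosomal protein genes share reads with processed pseudogenes.

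Among SWI/SNF subunits, 1 of 27 was called higher in CHLA 06 and 6 higher in CHLA 04, with a median of −0.37. The latter share, 22.2%, was near the 19.0% among all genes, and the former, 3.70%, was under 13.9%. SMARCA2 was a marker when the comparison was chosen, so that its call was known beforehand. Besides SMARCA2, the CHLA 04 side held DPF1, a subunit of the neuronal form of the complex, at 3.41 and 6.33 TPM against 69.8 and 65.4 TPM, and the ATPase SMARCA4, at 104 and 120 TPM against 342 and 256 TPM. SS18 was the subunit called higher in CHLA 06, at 189 and 167 TPM against 52.8 and 76.9 TPM. SMARCB1 mRNA was measured in all 4 libraries, at 17.3 and 16.2 TPM in CHLA 06 and 26.2 and 22.1 TPM in CHLA 04, and was not called (−0.48 ± 0.12). The CHLA 04 count fell to 3 under median-ratio scaling and under quantile normalization and to 2 in GC-centred values, in which SMARCA4 was not called.

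Markers of the SHH group were almost all on the CHLA 04 side. Of 16 measured markers, 13 were called higher in CHLA 04 and 0 higher in CHLA 06, against 19.0% and 13.9% of all genes, and the median was −4.64. SOX1, a factor of early neural tube cells, had 0.0455 and 0 TPM in CHLA 06 and 197 and 229 TPM in CHLA 04. The markers that were not called were the hedgehog targets GLI1 (33.4 and 27.0 against 59.6 and 49.1 TPM) and PTCH1 (201 and 107 against 244 and 241 TPM), and ZIC2 (65.4 and 54.1 against 51.4 and 39.7 TPM). The count stayed between 12 and 14 over the alternatives run on lists.

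The hedgehog pathway itself held calls in both directions. Of 15 genes, 5 were called higher in CHLA 04 (33.3%) and 2 higher in CHLA 06 (13.3%), with a median of −0.47. Among all genes the shares were 19.0% and 13.9%, so that the CHLA 06 share was near that of all genes. The transcription factors GLI3, at 0.570 and 0.646 TPM against 229 and 178 TPM, and GLI2, at 15.4 and 14.4 TPM against 167 and 126 TPM, were higher in CHLA 04. So were the ligand co-receptors BOC and GAS1, while the co-receptor CDON was higher in CHLA 06. HHIP, which binds and sequesters hedgehog ligands and is itself induced by the pathway, was higher in CHLA 06, at 72.5 and 57.7 TPM against 2.11 and 2.47 TPM.

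In the Notch pathway 15 of 28 genes were called higher in CHLA 04 (53.6%) and 3 higher in CHLA 06 (10.7%), with a median of −1.33. Among all genes the shares were 19.0% and 13.9%. Ligands gave the widest gaps, with DLL3 at 0.229 and 0.707 TPM against 761 and 290 TPM, and DLL1 at 0.204 and 0.479 TPM against 257 and 155 TPM. JAG1, at 0.0641 and 0.135 TPM against 13.5 and 11.8 TPM, lay on the same side. The receptor NOTCH2 was measured at 92.3 and 81.8 TPM in CHLA 06 and 860 and 740 TPM in CHLA 04. HES6, HES4 and HEY1, of the HES and HEY families, were higher in CHLA 04, and the Fringe enzymes were divided, LFNG being higher in CHLA 04 and MFNG, with no read in CHLA 04, at 10.9 and 10.9 TPM in CHLA 06.

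Neural progenitor genes were mostly higher in CHLA 04. Of 27 measured, 22 were called higher in CHLA 04 and 0 higher in CHLA 06, with a median of −3.17. SLC1A3, the glial glutamate transporter, had 0.300 and 1.61 TPM against 421 and 453 TPM. NR2E1 (also called TLX), which maintains neural stem cells, had 0.0495 and 0.0448 TPM against 160 and 150 TPM. The POU factors POU3F2 and POU3F4 had at most 0.0478 TPM in CHLA 06 and from 47.5 to 89.1 TPM in CHLA 04. NES, the nestin gene often used to mark neural stem cells, was not among the calls and overlapped between the lines, at 5.21 and 10.5 TPM in CHLA 06 and 10.8 and 6.93 TPM in CHLA 04.

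Neuronal genes were also mostly higher in CHLA 04, with 11 of 21 called on that side (52.4%) and a median of −1.01. The 4 called higher in CHLA 06 made up 19.0%. Among all genes the shares were 19.0% for CHLA 04 and 13.9% for CHLA 06. The adhesion molecule NCAM1 had 0.0735 and 0.0434 TPM in CHLA 06 against 469 and 201 TPM in CHLA 04, and the microtubule protein MAP2 had 7.20 and 5.41 TPM against 745 and 624 TPM. The calls in CHLA 06 included GAD1, which makes the transmitter GABA, at 410 and 282 TPM against 8.43 and 10.2 TPM, and the neurofilaments NEFL and NEFM. The identifier of TUBB3, the neuronal beta tubulin, with most reads (ENSG00000258947) had 311 and 455 TPM in CHLA 06 and 308 and 221 TPM in CHLA 04 and was not called. A read-through identifier with the same symbol shares its exons.

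Patterning factors moved in both directions, with 9 of 23 called higher in CHLA 06 (39.1%) and 12 higher in CHLA 04 (52.2%). Among all genes the shares were 13.9% and 19.0%. The forebrain factor LHX2 had 0.742 and 2.62 TPM in CHLA 06 and 26.8 and 28.9 TPM in CHLA 04, and MEIS1 was on the same side. CHLA 06 instead held PAX2, a factor of kidney and midbrain-hindbrain boundary, at 45.1 and 47.5 TPM against 0.174 and 0.233 TPM. GATA2, IRX3 and DBX1 were likewise higher in CHLA 06. HOX genes were few: no HOXA or HOXD gene passed the filter, while HOXB2 and HOXB3 were at 20.0 and 16.8 TPM and at 11.6 and 10.9 TPM in CHLA 06 without a read in CHLA 04. In the HOXC cluster, HOXC8, HOXC9 and HOXC6 were called higher in CHLA 06, with HOXC8 at 18.7 and 19.5 TPM against 1.63 and 0.230 TPM.

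Markers of the MYC and TYR groups were examined because group 2 covers both. Of 12 MYC group markers, 7 were called higher in CHLA 06 and 1, PDGFRA, higher in CHLA 04, with a median of 1.21. The CHLA 06 count was 5 with the most abundant transcript and 9 in GC-centred values. Called genes of these 12 were on the CHLA 06 side except PDGFRA. Those higher in CHLA 06 included the matrix protein TGFBI, at 813 and 374 TPM against 0.0843 and 0.105 TPM, the hyaluronan receptor CD44, at 39.1 and 52.9 TPM against 0.511 and 0.158 TPM, and ERBB2. Of 7 TYR group markers that passed the filter, 3 were called higher in CHLA 06 and 2 higher in CHLA 04. BMP4 had 379 and 277 TPM in CHLA 06 against 0.410 and 1.61 TPM, TYRP1, an enzyme of melanin synthesis, had 71.5 and 63.0 TPM against 0 and 0.0508 TPM, and OCA2, a melanosomal membrane protein, was also higher. The tyrosinase gene TYR and MLANA were listed at 0 in all 4 libraries and did not pass the filter, and MITF, the main pigment cell factor, was not called and was lower in CHLA 06, at 1.43 and 0.874 TPM against 6.13 and 2.85 TPM. The HOXC genes and MYC stand in more than 1 list, and the lists were chosen with earlier results of these data known. MYC, PAX6 and SMARCA2 were also markers when the comparison was chosen, so that their calls in any list were known beforehand.

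**Figure D3:**
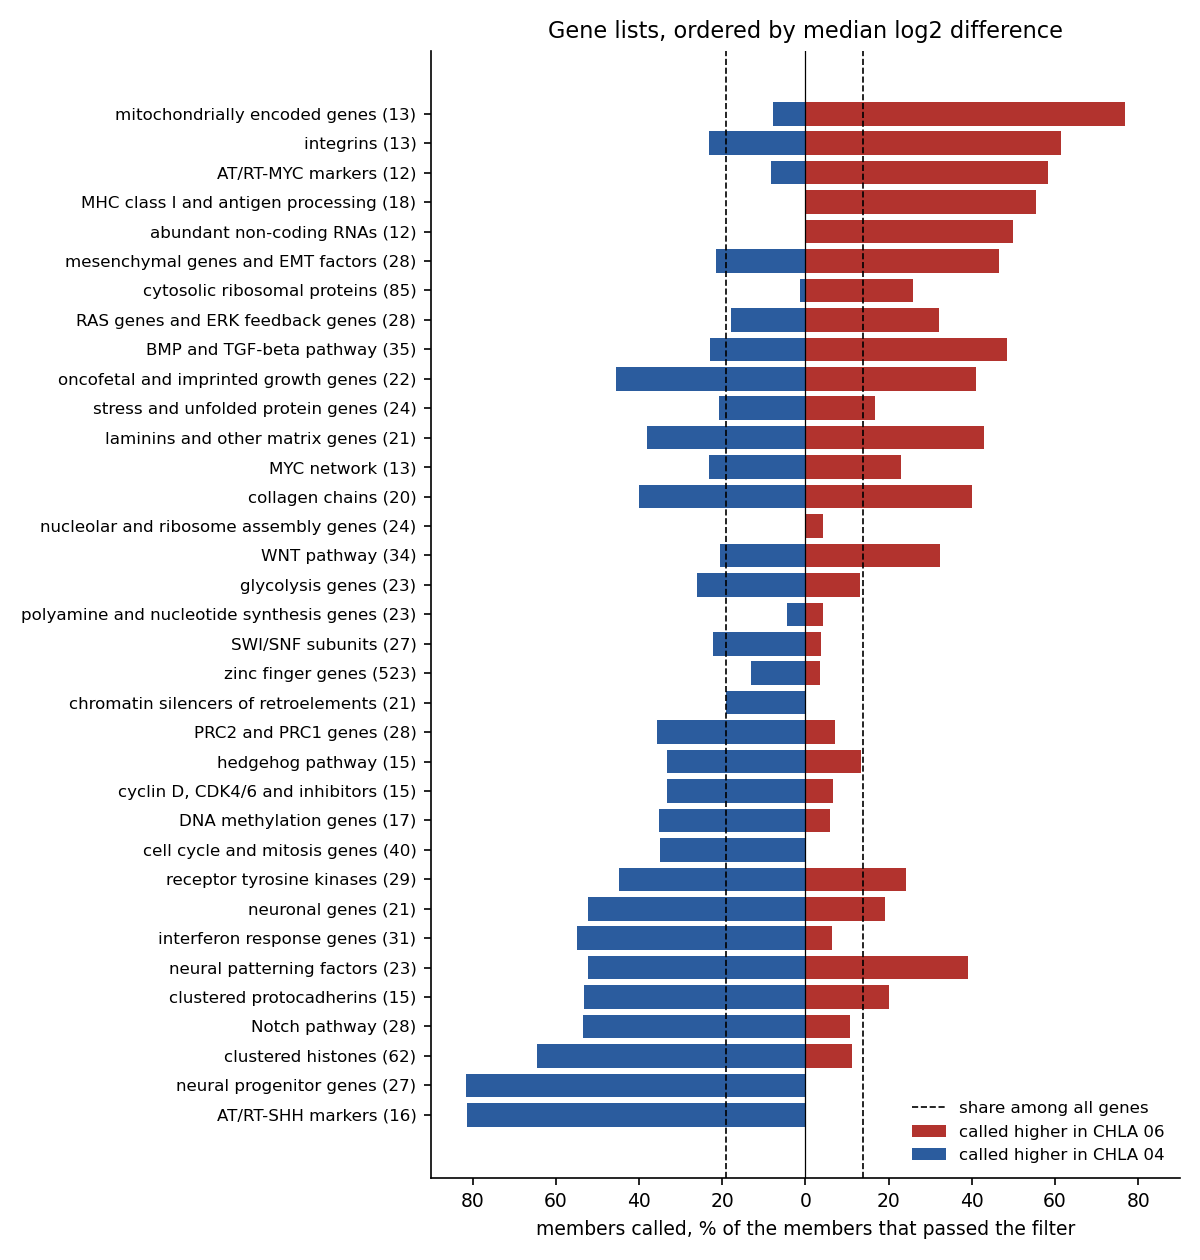
Share of the members that passed the filter (number in brackets) called higher in CHLA 06 (red, to the right) and in CHLA 04 (blue, to the left) for lists with at least 10 such members, ordered by the median log2 difference. Dashed lines mark the shares among all genes, 13.9% and 19.0%, and the progenitor and SHH lists reach furthest to the CHLA 04 side.

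Keratin genes and most called mesenchymal genes were on the CHLA 06 side. The 4 epithelial genes that passed the filter did so through CHLA 06 alone, so that their common direction follows from the filter. KRT19 had 104 and 95.3 TPM and KRT8 had 81.6 and 79.3 TPM in CHLA 06, against 0 to 0.188 TPM in CHLA 04, and KRT18 followed. EPCAM was low, at 2.52 and 2.60 TPM against 0, and CDH1, the defining cadherin of epithelium, reached no more than 0.0739 TPM in any of the 4 libraries. Of 28 mesenchymal genes and factors of epithelial-mesenchymal transition, 13 were called higher in CHLA 06 (46.4%) and 6 higher in CHLA 04 (21.4%), with a median of 0.82. The latter share was near the 19.0% among all genes, and the former was above 13.9%. On the CHLA 06 side lay S100A6, at 604 and 565 TPM against 0.351 and 0.215 TPM, the matrix protein SPARC and the contractile genes MYL9 and TAGLN. VIM, the intermediate filament vimentin, was abundant in both lines and 1.82 higher on the log2 scale in CHLA 06, at 19464 and 14708 TPM against 4629 and 4990 TPM, and was not called after quantile normalization.
The paralogs ZEB1 and ZEB2, repressors of epithelial genes, were divided as the MYC family was. ZEB2 had 96.1 and 86.5 TPM in CHLA 06 and 1.47 and 0.640 TPM in CHLA 04, and ZEB1 had 10.5 and 13.4 TPM in CHLA 06 and 440 and 333 TPM in CHLA 04. FN1, fibronectin, was higher in CHLA 04 at 202 and 265 TPM against 7.59 and 4.17 TPM.

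Markers of further cell types were checked in the same libraries. The 3 astrocyte markers that passed the filter did so through CHLA 04 alone, among them GFAP at 45.3 and 47.9 TPM against 0.0419 and 0.0379 TPM, and the water channel AQP4, and their common direction again follows from the filter. Of the oligodendrocyte list only MBP passed the filter, at 23.9 and 22.3 TPM in CHLA 06 without a read in CHLA 04, while MOG was at or under 0.0937 TPM. For blood the macrophage marker CD68 passed, at 6.34 and 22.6 TPM in CHLA 06 against 0.897 and 0.236 TPM, while PTPRC, present on all white cells, was at or under 0.224 TPM and HBB at 0. For endothelium VWF passed, at 3.70 and 2.06 TPM in CHLA 04, while CDH5 was at 0 in all 4 libraries. The summed level of the 7 blood genes was 6.41 and 22.7 TPM in CHLA 06 and 1.24 and 0.952 TPM in CHLA 04, and the part of other cells in any gene's difference was not tested.

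Matrix and adhesion genes changed in both directions by exchange of members. Among 20 collagen chains, 8 were called in each direction and the median was −0.01, with a sign that changed with the scaling. In CHLA 06 they included COL6A3, COL3A1, the fibrillar chains COL1A1, at 600 and 459 TPM against 2.76 and 0.679 TPM, and COL5A2, at 1465 and 868 TPM against 3.78 and 2.14 TPM, and the cartilage chain COL9A2. In CHLA 04 they included COL26A1, at 187 and 187 TPM against 0.644 and 0.889 TPM, COL6A2 and COL4A2. The summed level of the collagen list was 6135 and 4556 TPM in CHLA 06 and 720.1 and 422.0 TPM in CHLA 04. The CHLA 04 count was 4 in GC-centred values and 4 without the first CHLA 04 library.
Of 21 laminins and other matrix genes, 9 were called higher in CHLA 06 and 8 higher in CHLA 04, or 5 in GC-centred values. LAMC1 and the proteoglycan DCN were higher in CHLA 06, and the proteoglycan VCAN, at 70.1 and 40.7 TPM against 613 and 588 TPM, and TNC higher in CHLA 04. Of 13 integrins, which anchor cells to the matrix, 8 were called higher in CHLA 06 (61.5%) and 3 higher in CHLA 04 (23.1%). The latter share was near the 19.0% among all genes, and the former was above 13.9%. ITGAV had 1355 and 1001 TPM against 52.1 and 60.6 TPM, and its partner ITGB8 went the other way, with 1.81 and 1.26 TPM against 133 and 102 TPM.

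BMP and TGF-β genes were called higher in CHLA 06 in 17 of 35 cases (48.6%) and higher in CHLA 04 in 8 (22.9%), with a median of 0.55. The latter share was near the 19.0% among all genes, and the former was above 13.9%. The ligands BMP4 and TGFB2 were higher in CHLA 06, and the ligand BMP7 was higher in CHLA 04. BMP7 had 0.210 and 0.0630 TPM in CHLA 06 and 337 and 223 TPM in CHLA 04, and TGFB2 had 191 and 141 TPM against 0.862 and 0.616 TPM. The receptor TGFBR2 had 298 and 260 TPM against 4.76 and 8.66 TPM. The inhibitory mediator SMAD6 and the target ID2, at 248 and 198 TPM against 50.6 and 25.5 TPM, were also higher in CHLA 06. The antagonists CHRD and BAMBI were higher in CHLA 04.

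WNT genes were called higher in CHLA 06 in 11 of 34 cases (32.4%) and higher in CHLA 04 in 7 (20.6%). Among all genes the shares were 13.9% and 19.0%, so that the CHLA 04 share was near that of all genes. The median was −0.23, with a sign that changed with the scaling. The R-spondin receptors LGR5 and LGR4, the latter at 360 and 264 TPM against 5.01 and 4.88 TPM, the R-spondin RSPO4 and the ligands WNT2 and WNT5B were higher in CHLA 06. The frizzled receptors FZD8, FZD5 and FZD1, the co-receptor LRP6 and the secreted antagonist SFRP1, at 0.297 and 0.317 TPM against 593 and 711 TPM, were higher in CHLA 04. Neither ligands nor frizzled receptors lay on 1 side, since the ligand WNT7B was called higher in CHLA 04 and the receptors FZD7 and FZD6 higher in CHLA 06.

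Receptor tyrosine kinases were called in both directions. Of 29, 7 were called higher in CHLA 06 (24.1%) and 13 higher in CHLA 04 (44.8%), against 13.9% and 19.0% of all genes. The CHLA 04 count was 8 in GC-centred values. MET, the receptor of hepatocyte growth factor, had 407 and 381 TPM in CHLA 06 against 0.379 and 0.383 TPM in CHLA 04, and its ligand HGF, named here after its values were seen, had 522 and 408 TPM against 0 and 0.0242 TPM. EGFR had 299 and 260 TPM against 10.1 and 13.8 TPM, and EPHA7 had 506 and 268 TPM against 0.161 and 0 TPM. In CHLA 04 the receptor with the highest level was FGFR1, at 2054 and 1720 TPM against 64.1 and 64.1 TPM, and DDR1 and KIT were on that side. The medium of both lines contained EGF and basic FGF. Among RAS genes and ERK feedback genes, 9 of 28 were called higher in CHLA 06 (32.1%) and 5 higher in CHLA 04 (17.9%). The shares among all genes were 13.9% and 19.0%, the latter near the CHLA 04 share of this list. SPRY1 led the CHLA 06 side, at 385 and 328 TPM against 8.68 and 10.1 TPM. The CHLA 06 count was 6 when both same-numbered pairs of libraries had to differ by at least 1, and 12 without the second CHLA 04 library. Without the first CHLA 04 library the count on the CHLA 04 side was 8. NRAS was not called, with 121 and 120 TPM in CHLA 06 and 50.5 and 100.4 TPM in CHLA 04.

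Oncofetal and imprinted growth genes were split almost evenly, 9 of 22 being called higher in CHLA 06 and 10 higher in CHLA 04. The mRNA-binding proteins IGF2BP1, at 118 and 114 TPM against 0 and 0.0175 TPM, and IGF2BP2, the chromatin protein HMGA1 and the imprinted DLK1 and DIRAS3 were on the CHLA 06 side. MEST, PEG3, PEG10, MAGEL2 and NNAT, all imprinted, were on the CHLA 04 side. PEG3, at 2.48 and 2.73 TPM against 642 and 525 TPM, and ZIM2 share their first exons, and their values are not independent. Pluripotency factors were scarce, since POU5F1 was listed at 0 in the 4 libraries, SOX2 reached 0.470 TPM and NANOG 0.588 TPM, while SALL4 had 28.6 and 25.7 TPM in CHLA 06 and 69.5 and 61.8 TPM in CHLA 04. Of the cancer-testis genes PRAME was called, at 74.9 and 70.5 TPM in CHLA 06 against 0.418 and 0 TPM, with TEX15, and 28 members of that list were at 0 in the 4 libraries.

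Of 40 cell cycle genes, 14 were called higher in CHLA 04 (35.0%), 0 were called higher in CHLA 06 and 26 were not called, with a median of −0.75. The shares among all genes were 19.0% for CHLA 04 and 13.9% for CHLA 06. The called genes included E2F1, at 10.1 and 22.2 TPM against 102 and 74.6 TPM, and the mitotic kinase AURKB, at 25.3 and 48.1 TPM against 109 and 156 TPM. The technical replicates of each line differed in the same genes. In CHLA 06 the second library was higher for 40 of the 40 genes, by a median of 0.74, and in CHLA 04 for 38 of 40, by a median of 0.58. The count was 7 without the first CHLA 06 library, 25 without the second, 22 without the first CHLA 04 library and 10 without the second. Of 15 genes for D-type cyclins, their kinases and inhibitors, 1 was called higher in CHLA 06 (6.67%) and 5 higher in CHLA 04 (33.3%). The CHLA 06 count was 3 under median-ratio scaling and quantile normalization. The CHLA 06 gene was CCND2, at 145 and 162 TPM against 5.95 and 2.95 TPM. CCND3, at 16.4 and 24.5 TPM against 429 and 399 TPM, and CDK6, at 8.66 and 8.35 TPM against 154 and 223 TPM, were higher in CHLA 04. The inhibitor CDKN2A was present in both lines and higher in CHLA 04.

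Histone genes of the clusters were called higher in CHLA 04 in 40 of 62 cases (64.5%) and higher in CHLA 06 in 7 (11.3%), with a median of −1.50. The latter share was near the 13.9% among all genes, and the former was above 19.0%. HIST1H3I had no read in CHLA 06 and 238 and 255 TPM in CHLA 04, while HIST1H1D had 58.6 and 159 TPM in CHLA 06 against 1.07 and 0.435 TPM. The second CHLA 06 library was higher than the first for 56 of the 62 genes, by a median of 0.90, and near-identical copies share reads, so that the value of a single histone gene is uncertain. Of the 28 genes of Polycomb complexes, 10 were called higher in CHLA 04 (35.7%) and 2 higher in CHLA 06 (7.14%). The shares among all genes were 19.0% and 13.9%. CBX2, at 5.82 and 6.45 TPM against 52.8 and 46.4 TPM, and the methyltransferase EZH2, at 25.1 and 43.1 TPM against 64.7 and 105 TPM, were among the 10. The CHLA 04 count was 5 under median-ratio scaling and 6 under quantile normalization and in GC-centred values. The CHLA 06 count of these genes was 0 without the first CHLA 04 library. Of 17 DNA methylation genes, TET3, TET1, DNMT3A, MBD1, MBD3 and GADD45G were called higher in CHLA 04 (35.3%) and GADD45A higher in CHLA 06 (5.88%). Over the alternatives the CHLA 04 count of these genes ranged from 4, in GC-centred values, to 7, and the CHLA 06 count from 0 to 3. Of 21 silencers of retroelements, 4 were called higher in CHLA 04, the same 19.0% as among all genes, and 0 in CHLA 06. SETDB1 was not called, at 54.9 and 42.7 TPM against 73.2 and 61.6 TPM. That count was 2 under median-ratio scaling, under quantile normalization and without the first CHLA 06 library, and 1 in GC-centred values.
Zinc finger genes with ZNF or ZFP symbols were called higher in CHLA 06 in 19 of 523 cases (3.63%) and higher in CHLA 04 in 68 (13.0%), shares under those of all genes. With median-ratio scaling the CHLA 04 count was 42. ZNF521 had 231 and 180 TPM in CHLA 06 against 0.269 and 0.136 TPM, and ZNF423, a factor of cerebellar progenitors, had 2.56 and 2.13 TPM against 155 and 106 TPM. Of 15 clustered protocadherins, whose exons share reads, 3 were called higher in CHLA 06 and 8 higher in CHLA 04, or 5 without the first CHLA 04 library.

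MHC class I and interferon genes, which often rise together, lay on opposite sides. Of 18 genes for class I molecules and antigen processing, 10 were called higher in CHLA 06 and 0 in CHLA 04, with a median of 1.04. HLA-C had 611 and 464 TPM against 89.3 and 64.8 TPM, B2M had 693 and 519 TPM against 161 and 179 TPM, and the peptide transporter genes TAP1 and TAP2 were on that side. The count was 6 without the second CHLA 04 library and 13 under median-ratio scaling. Of 31 interferon response genes, 17 were called higher in CHLA 04 and 2 higher in CHLA 06, with a median of −1.09. BST2, which tethers budding virions, had 0.408 and 0.574 TPM in CHLA 06 and 474 and 358 TPM in CHLA 04. IFITM1, IFITM2 and IFITM3, which block viral entry, were all higher in CHLA 04, as was XAF1, at 11.5 and 7.71 TPM against 363 and 384 TPM.

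Metabolic and stress genes differed in single members. Of 23 glycolysis genes, 3 were called higher in CHLA 06 and 6 higher in CHLA 04, which is 13.0% and 26.1% against 13.9% and 19.0% of all genes. Lactate dehydrogenase LDHA, at 1495 and 1426 TPM against 400 and 494 TPM, and ALDOC were higher in CHLA 06, and hexokinase HK2, at 0.253 and 0.719 TPM against 29.1 and 23.8 TPM, and the glucose transporters SLC2A1 and SLC2A3 higher in CHLA 04. Of 24 stress genes, 4 were called higher in CHLA 06 and 5 higher in CHLA 04 (7 and 2 under median-ratio scaling, 7 on the CHLA 06 side without the second CHLA 04 library and 3 on the CHLA 04 side without the first), shares of 16.7% and 20.8% that were near those of all genes, with NQO1 and MT2A higher in CHLA 06, and HSPA1A and HSPA1B, near-identical genes that share reads, called in opposite directions. Of 13 mitochondrially encoded genes, 10 were called higher in CHLA 06 and 1 higher in CHLA 04. Their summed TPM made up 6.92% and 8.67% of all TPM in the CHLA 06 libraries and 1.83% and 3.27% in the CHLA 04 libraries. Replicates thus differed here as well. Of 12 abundant non-coding RNAs, 6 were called higher in CHLA 06, among them the small nucleolar RNA hosts GAS5, at 597 and 459 TPM against 171 and 192 TPM, and SNHG5. MALAT1, the most abundant of them, was not called, at 15861 and 20186 TPM against 18975 and 21849 TPM.

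Called genes also lay side by side. Runs of at least 4 neighbouring genes called in the same direction numbered 65 with 324 genes for CHLA 06 and 70 with 338 genes for CHLA 04. The longest had 11 genes, on chromosome 12 from 88142296 to 91183123 (GRCh38), higher in CHLA 06. It ran from TMTC3 and KITLG, the ligand of KIT at 88.8 and 85.6 TPM against 8.18 and 15.1 TPM, over the ERK phosphatase DUSP6 to ATP2B1 and DCN. A run of 10 genes on chromosome 7 from 114086327 to 117230103 joined FOXP2, TES, the caveolins CAV1 and CAV2, MET and ST7. CAV1, which forms membrane caveolae, had 1977 and 1594 TPM in CHLA 06 against 23.4 and 32.9 TPM in CHLA 04. By the rule of a run, all 10 genes, MET and TES among them, were called higher in CHLA 06. On chromosome 1 from 151982915 to 153634092, 6 S100 genes (S100A10, S100A11, S100A6, S100A4, S100A2 and S100A13) were called higher in CHLA 06. S100A4 was the exception in degree, with 82.2 and 37.0 TPM in CHLA 04 against 562 and 462 TPM in CHLA 06. On chromosome 11 from 102047443 to 102843803, the Hippo effector YAP1, the apoptosis inhibitors BIRC2 and BIRC3 and the metalloproteinases MMP10, MMP1 and MMP3 were called higher in CHLA 06. YAP1 had 548 and 545 TPM against 179 and 267 TPM, whereas MMP3 had 86.8 and 79.5 TPM against 0.117 and 0.216 TPM. On the CHLA 04 side the longest run had 10 genes, on chromosome 16 from 681671 to 800737, from JMJD8 over FBXL16 and METRN to CHTF18. Some runs include antisense or read-through genes that overlap a neighbour, whose reads cannot be told apart without knowing how strand was counted.

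Chromosomes differed little in their medians. Relative to all genes, chromosome 19 had the lowest median, −0.27, and chromosome 13 the highest, 0.24, and next in size were chromosome 16 at −0.19 and chromosome 14 at 0.17. In GC-centred values these medians were −0.10, 0.05, −0.03 and 0.09, in the same order. DNA copy number was not measured.

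Differences followed the GC content of the transcripts. In 5 equal groups of genes ordered by the GC content of their most abundant transcript, which could be matched for 98.0% of genes, the median difference between the lines was 0.16, −0.03, −0.22, −0.41 and −0.57 from the lowest to the highest group. The technical replicates of CHLA 04 also differed along GC, the first minus the second library going from −0.25 to 0.35, while those of CHLA 06 stayed between −0.04 and 0.01. The share of genes called higher in CHLA 04 rose from 10.4% to 28.7% along the groups and that of genes called higher in CHLA 06 fell from 18.6% to 10.8%. Without the first CHLA 04 library the medians went from 0.01 to −0.37 and without the second from 0.30 to −0.74, so that the trend was present with either library. No such trend was seen with transcript length, where the medians lay between −0.22 and −0.15. All of these medians were under 1 in size, the difference asked for in a call.

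**Figure D4:**
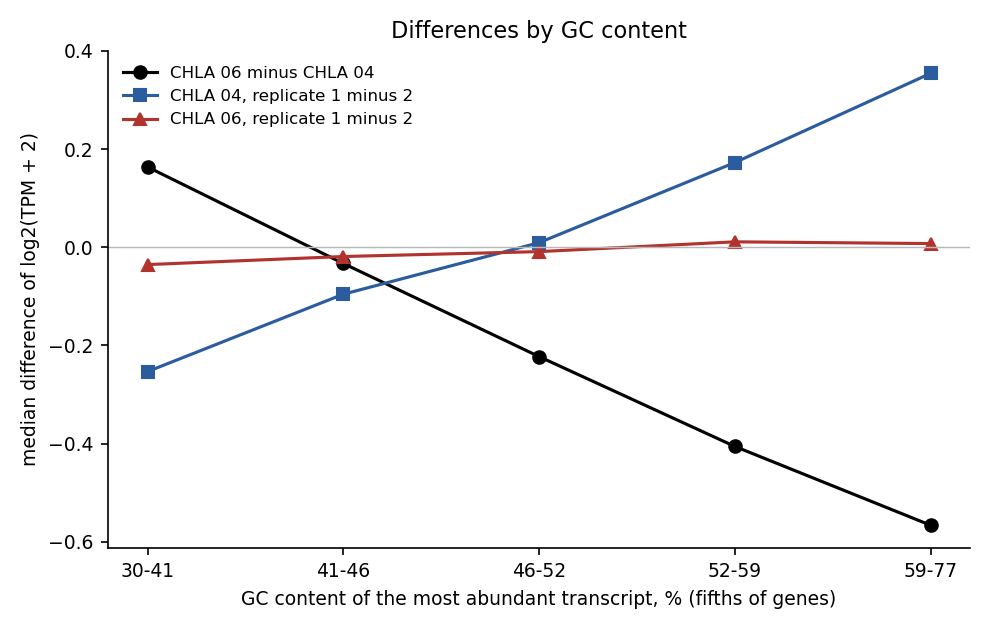
Median difference of log2(TPM + 2) in 5 equal groups of genes ordered by the GC content of the most abundant transcript, for CHLA 06 minus CHLA 04 (circles) and for replicate 1 minus replicate 2 within CHLA 04 (squares) and CHLA 06 (triangles). The difference between the lines falls from 0.16 to −0.57, the CHLA 04 replicates differ from −0.25 to 0.35, and the CHLA 06 replicates stay near 0.

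The single libraries of CHLA 02 and CHLA 05 were then placed on the scale from CHLA 04 (0%) to CHLA 06 (100%) in TPM, for genes with a difference of at least 3 on the log2 scale and at least 20 TPM in the higher line. For the 391 such genes higher in CHLA 06, the CHLA 05 library was at a median of 1.18% of the way, with 136 genes at or below the CHLA 04 libraries, so that it lay with CHLA 04. The CHLA 02 library was at a median of 54.4%, with quartiles of 42.2% and 69.8%, and lay between the lines for 347 genes (88.7%) and never at or below CHLA 04. For the 464 such genes higher in CHLA 04, CHLA 02 was at a median of 63.9% of the way and between the lines for 432 genes (93.1%), and CHLA 05 was at a median of 56.7% with a wide spread. The direction of these positions depended on the scale. On log2(TPM + 2), the scale used elsewhere in the text, 85.8% of these genes in CHLA 02 and 69.6% in CHLA 05 lay nearer to CHLA 04. For the genes higher in CHLA 06, 96.2% lay nearer to CHLA 06 in CHLA 02 on the log2 scale and 80.1% nearer to CHLA 04 in CHLA 05.
The genes near 0 in 1 of the 2 lines gave the same picture. These were the genes under 0.5 TPM in both libraries of 1 line and at least 10 TPM in both of the other, here without the sex-linked marker genes and mitochondrial genes that were also left out of the named genes. Of those present in CHLA 06, 99.6% reached at least 1 TPM in CHLA 02 and 30.0% in CHLA 05. Of those present in CHLA 04, 98.7% reached at least 1 TPM in CHLA 02 and 89.3% in CHLA 05. The CHLA 02 library therefore contained nearly all genes of both sets, for example MYC at 79.7 TPM with MYCN at 26.3 TPM, and TES at 361 TPM with SOX1 at 81.8 TPM. Whether single cells of CHLA 02 express both sets was not measured, and the source of these values was not tested.

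**Figure D5:**
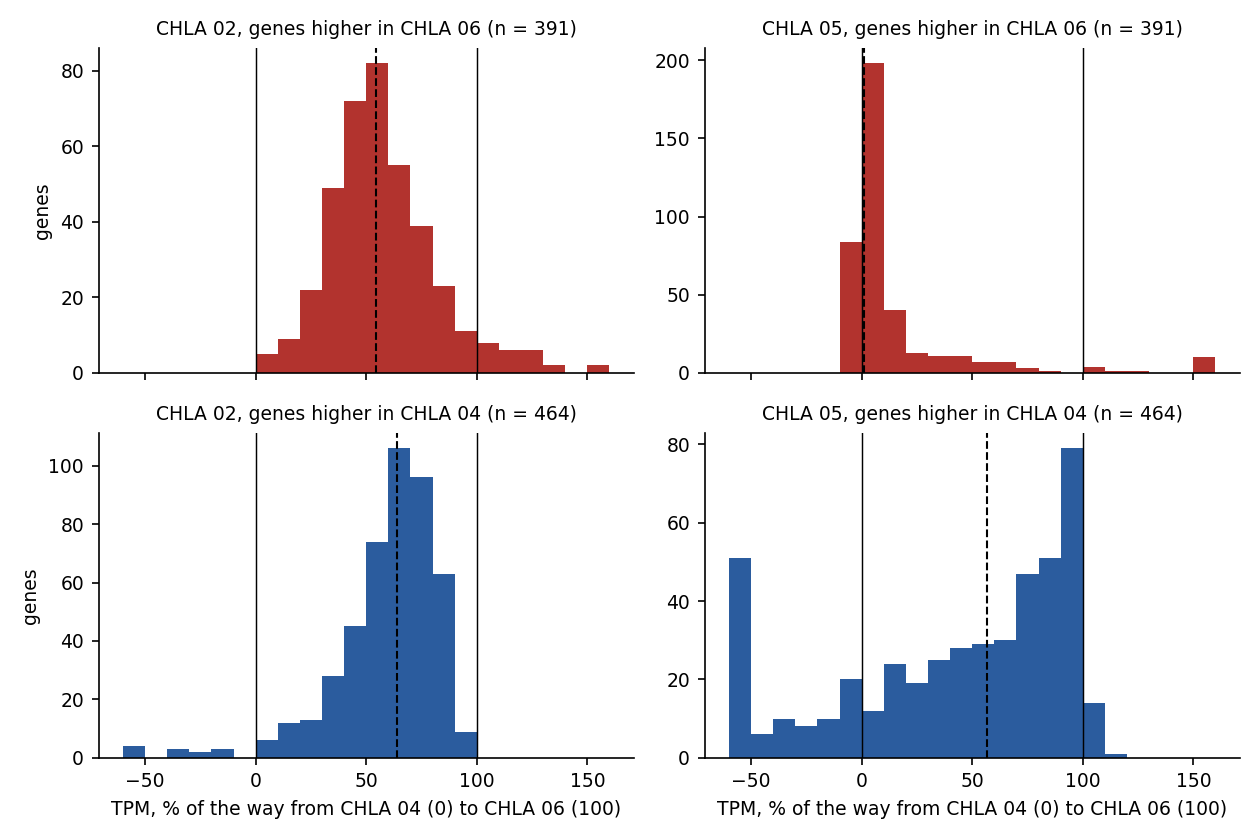
Number of genes by the position of the single CHLA 02 library (left) and CHLA 05 library (right) on the TPM scale from the CHLA 04 mean (0%) to the CHLA 06 mean (100%), for 391 genes higher in CHLA 06 (top) and 464 genes higher in CHLA 04 (bottom), with values beyond the drawn range counted in the outermost bars and the dashed line at the median. CHLA 02 forms a single peak between the lines in both rows, at medians of 54.4% and 63.9%, and CHLA 05 lies at the CHLA 04 end in the top row.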

How the data were processed

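Total RNA libraries (TruSeq Stranded, paired reads of 125 bases) of 4 AT/RT cell lines were used, 2 technical replicates each for CHLA 06 and CHLA 04. The submitters' processing notes name CASAVA 1.8.2, FastQC and Trimmomatic. The authors mapped the trimmed reads to GRCh38 (Ensembl release 82) in the CLCbio Genomics Workbench (RNA-Seq tool, default settings) and deposited TPM values per transcript. The version of that program and how strand was counted are not given in the sources used here. The authors' TPM values of LTR elements were not used here.

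TPM was summed by gene identifier over 173113 transcripts. Genes with a mean of at least 1 TPM over the 4 libraries (14585) were compared as log2(TPM + 2), the study's pseudocount. This scale understates differences of low genes. A gene was called when its libraries were separated and the means differed by at least 1. With 1 biological sample per line no test was made, and errors cover technical spread only. TPM keeps no depth, but TPM multiplied by transcript length fell on whole multiples of 1 step (tolerance 0.05) for at least 99.6% of values, from which reads were recovered for depth. Classes and GC content were taken from GENCODE 44, and promoters from RefSeq.

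Named genes were the 12 with the largest difference in each direction with at least 10 TPM in the higher line, the line markers and genes named by the study, up to 4 called members per list and direction, and members of runs. Sex-linked marker genes and mitochondrial genes were left out of the 12. The members and lists were chosen with earlier results of these data known. Alternatives covered pseudocounts, filters, scalings, size rules, single transcripts, depth, pairing and each replicate left out, and GC centring was added after the data were seen. The scripts were tested on simulated data, with Python 3.11.15, pandas 2.3.3 and statsmodels 0.14.6.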

Additional observations from a re-analysis of the deposited data

How the results depend on the processing

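The calls were 2032 genes higher in CHLA 06 and 2770 higher in CHLA 04. They became 4462 and 6772 when separation of the libraries alone was asked for, and 823 and 1010 with a difference of at least 2 on the log2 scale, as these rules are looser and stricter by construction. Leaving out 1 library gave 1951 to 2190 genes for CHLA 06 and 2438 to 3222 for CHLA 04, where the lone library of a line was taken at its value. Every other alternative stayed within a factor of 1.5, from 1599 to 2515 and from 1883 to 3431, and no gene was called in the opposite direction under any of them. The filter removed no call, since the size rule with a pseudocount of 2 already asks for a mean of at least 1 TPM. Of 246 called genes named by rule, 231 to 246 stayed called in each alternative run on them and none changed direction. Calls lost in at least 1 alternative included VIM (quantile normalization), SMARCA4 and MBD3 (GC-centred values), SMS and SALL4 (median-ratio scaling), MLXIPL, CDON and NEFM (most abundant transcript), NPM1, VWF and the low RPL41 identifier (without the first CHLA 04 library), GADD45A (without the second) and EPCAM and HOXC6 (without the first CHLA 06 library). Replicate numbers only name the libraries. Same-numbered libraries of the 2 lines deviated together across genes with r = 0.282, with 2 pairs, and asking both same-numbered pairs for a difference of at least 1, as a replicate block, gave 1689 and 2126 calls. In GC-centred values, added after the data were seen, the medians relative to all genes became −0.102 for chromosome 19, 0.0460 for chromosome 13, −0.0263 for chromosome 16 and 0.0894 for chromosome 14, and the cause of the GC trend was not tested. The medians of the MYC network, nucleolar, WNT and collagen lists changed sign with the scaling, and those of the polyamine and nucleotide list (0.09) and the glycolysis list (0.09) turned in GC-centred values, the latter also with the most abundant transcript. Depth limits values under 0.709 TPM, the worth of 3 reads on 1000 bases in the shallowest library.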
